A study of Bos taurus with 170 samples.

Results

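CDX2, FOSL1, KRT8, KRT18, TEAD4 and GATA3 are genes linked to the trophectoderm, the outer epithelium of the blastocyst that later forms the placenta. They were followed here in bovine blastomeres collected before the first lineage choice is visible. The 6 genes were looked up by symbol in the table of unique molecular identifiers (UMI, tags that let each captured mRNA molecule be counted once), and 3 of them, CDX2, FOSL1 and GATA3, have a row among the 10772 listed genes. Embryos had been produced by in vitro maturation and fertilization and cultured without any treatment, and their single cells were profiled by SCRB-Seq, which reads the 3′ end of transcripts. Cells with at least 2000 UMI were kept, 43 of 47 from 6 Day 2 embryos at the 8-cell stage and 118 of 123 from 8 Day 3 embryos at the 16-cell stage. The embryos had been picked for favourable cleavage timing, so they do not stand for all embryos of their age. The labels give no strain, parent or sex.

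The trophectoderm arises when outer cells of the morula become polarised. In the model from mouse embryos, Hippo signalling is low in polarised cells and the coactivators YAP1 and WWTR1 stay in the nucleus. Together with TEAD4 they switch on CDX2 and GATA3. Whether this holds in cattle was not tested here. CDX2 is a homeobox transcription factor that maintains the lineage, GATA3 is a zinc finger transcription factor of the same lineage, and FOSL1 is an AP-1 subunit that pairs with JUN proteins and is known from invasive trophoblast. KRT8 and KRT18 form the keratin filaments of the simple epithelium. In cattle the major activation of the embryonic genome falls around the stages sampled here, so that maternal transcripts of the oocyte and new embryonic transcripts are both present.

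Depth differed between the days. The median cell held 75114 gene UMI on Day 2 and 24016.5 on Day 3, and the sums over an embryo ranged from 438899 to 920192 on Day 2 and from 294912 to 600185 on Day 3. Levels are therefore given as CPM, the UMI of a gene per 1000000 gene UMI of all kept cells of an embryo, and shares of cells are given with and without thinning every cell to 10000 UMI. In a sum over the cells of an embryo, fewer cells with a transcript and fewer transcripts per cell cannot be told apart. Of the 93 cell barcodes, 77 were used for 2 cells and 16 for 1, and cells with the same barcode were told apart by a library index. All Day 2 embryos and Day 3 embryos 1 and 2 used barcodes that do not repeat among them, called the first barcode set here, and most of these barcodes came back in Day 3 embryos 4 to 8. The plates overlapped with the days in part. Plate 3 held Day 2 embryos 1 to 4 and Day 3 embryos 5 and 6, plate 2 held Day 2 embryos 5 and 6 and Day 3 embryos 7 and 8, and plate 1 held Day 3 embryos 1 to 4 and no Day 2 embryo. Among Day 3 embryos each plate also had its own collection time in the study's methods, so plate and collection time cannot be told apart. Rank correlations between embryos were taken over 5378 genes with a mean of more than 20 CPM. Day 3 embryos 4 and 8 had the lowest mean with the other 13 embryos, 0.637 and 0.589, against 0.732 to 0.833 for the remaining 12. The other 13 include the Day 2 embryos. Among Day 3 embryos only, embryo 1 had the lowest mean, 0.703, followed by embryo 8 at 0.716 and embryo 4 at 0.759. The day comparisons are given with and without embryos 4 and 8.

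The cells carried the transcripts of early blastomeres. Of 10 oocyte and blastomere markers 8 were listed, and their summed level was 8595 to 10294 CPM in Day 2 embryos and 2850 to 10743 CPM in Day 3 embryos, the lowest being Day 3 embryo 8. The oocyte markers BMP15 and OOSP2 were not among the listed genes. Of 15 cumulus and granulosa markers 11 were listed, with sums of 498 to 609 CPM on Day 2 and 190.5 to 553 CPM on Day 3. Most of this sum came from HAS2, at 92.7 to 310 CPM with 1659 UMI in all, and from the steroidogenic gene STAR, with 1560 UMI and means of 259.8 CPM on Day 2 and 143 CPM on Day 3. INHBA had 133 UMI and VCAN 131. The receptors FSHR, LHCGR and AMHR2 and the aromatase CYP19A1 had no row, and the remaining markers, FOXL2 and CYP11A1 among them, had 3 to 36 UMI each. Of 5 sperm markers 3 were listed, at 0 to 7.72 CPM in sum. The part of these other cells in the results below was not tested.

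KRT8, KRT18 and TEAD4 have no entry in the UMI table, although RefSeq carries each of them as a protein-coding gene of cattle. Each of the 10772 listed genes has a UMI in at least 1 kept cell. A gene without a row may thus have been counted and found empty or may not have been annotated, and no limit on its level can be given. YAP1, the coactivator of TEAD4, has no entry either. Relatives of the absent genes were present at low counts. TEAD2, another TEAD factor, had 53 UMI in all kept cells, and WWTR1, the second coactivator, had 13 UMI with means of 1.12 CPM ± 1.89 (SD, n = 6) on Day 2 against 3.162 CPM ± 2.93 (SD, n = 8) on Day 3. The simple keratin KRT7 also had 13 UMI, while KRT19 had 238 UMI.

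CDX2 was the sparsest of the 3 genes, and its level was not called different between the days. Its 78 UMI came from 23 Day 2 cells and 14 Day 3 cells. The level in Day 2 embryos 1 to 6 was 17.1, 17.4, 15.8, 10.66, 17.9 and 4.56 CPM. In Day 3 embryos the lowest value was 0, the median 4.70 and the highest 13.15 CPM. Day 2 embryo 6 lay among the Day 3 embryos, and Day 3 embryos 6 and 7, at 13.15 and 12.9 CPM, lay above Day 2 embryo 4, so the groups overlapped.

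The means of CDX2 were 13.91 CPM ± 5.29 (SD, n = 6) and 5.798 CPM ± 5.35 (SD, n = 8). The difference of -8.11 CPM had p = 0.020 in a two-sided exact permutation test over embryos, and p = 0.0846 after Benjamini-Hochberg adjustment over all 10772 genes, of which 9.95% were called lower on Day 3 by this test. CDX2 did not pass the filter on low counts in edgeR, and without the filter its log2 fold change was -1.06 with a standard error of 0.53 (adjusted p = 0.165). No UMI of CDX2 was counted in 13 cells of Day 3 embryo 4 or in 17 cells of Day 3 embryo 5. A count of 0 still allows up to 23.1% and 17.6% of cells to give a UMI at this depth, which is no limit on cells with transcripts, and, at 3 UMI, a level of up to 8.97 and 7.798 CPM, limits that cover counting error only and that reach the values of at least 3 of the other 6 Day 3 embryos.

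FOSL1 was lower on Day 3, and the size of the difference depended on which embryos were compared. Day 2 embryos 1 to 6 had 44.9, 67.4, 63.3, 44.1, 57.6 and 47.8 CPM. Day 3 embryos ranged from 2.99 CPM in embryo 4 and 5.15 CPM in embryo 8 to 41.6 CPM in embryo 6 and 44.2 CPM in embryo 5, with a median of 28.0. Only Day 3 embryo 5 reached the range of the Day 2 embryos, by a margin of less than 1 CPM over the lowest of them.

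The mean level of FOSL1 fell from 54.2 CPM ± 9.97 (SD, n = 6) to 25.1 CPM ± 15 (SD, n = 8). The exact permutation test gave an adjusted p of 0.0315. In edgeR's quasi-likelihood test over 5274 genes the log2 fold change was -0.88 with a standard error of 0.33 and an adjusted p of 0.0467, in a comparison in which 11.28% of genes were called lower and 21.2% higher. Without TMM scaling the median log2 fold change of all genes moved from -0.04 to -0.27, and relative to that median FOSL1 was at -0.85 with TMM and at -0.81 without.

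Within plates the values of FOSL1 were unlike. On plate 3 the 4 Day 2 embryos had a mean of 54.9 CPM (44.1 to 67.4) and the 2 Day 3 embryos 42.9 CPM (41.6 to 44.2). On plate 2 the 2 Day 2 embryos had 52.7 CPM (47.8 to 57.6) and the 2 Day 3 embryos 12.3 CPM (5.15 to 19.4). The edgeR log2 fold change was -0.20 on plate 3 alone (adjusted p = 0.706), -1.76 on plate 2 alone (adjusted p = 0.0708) and -0.73 with plate as a covariate (adjusted p = 0.169). Leaving out Day 3 embryos 4 and 8, it was -0.60 (adjusted p = 0.0678), and the permutation test gave -22.1 CPM (adjusted p = 0.0551). Embryos 4 and 8 had the lowest FOSL1 levels of all, so leaving them out makes the difference smaller by construction. FOSL1 was lower on Day 3 in each of these fits, and its call held in none of them. Leaving out each embryo in turn, the edgeR call was kept in 3 of 14 fits, those without Day 3 embryo 1, 5 or 6 (adjusted p from 0.0275 to 0.0971 over all 14), and the permutation call in 5 of 14, those without Day 3 embryo 1, 2, 3, 5 or 6.

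GATA3 did not differ between the days beyond the spread of the embryos. Day 2 embryos 1 to 6 had 21.4, 53.2, 47.5, 44.1, 33.3 and 22.8 CPM. The lowest Day 3 value was 8.97 CPM in embryo 4, the median 30.5 CPM and the highest 57.6 CPM in embryo 3. The highest embryo of all was thus a Day 3 embryo, and 6 of the 8 Day 3 embryos lay at or below the Day 2 embryo with 44.1 CPM.

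The means of GATA3 were 37.1 CPM ± 13 (SD, n = 6) and 31.4 CPM ± 16 (SD, n = 8). The log2 fold change in edgeR was -0.02 with a standard error of 0.30 (adjusted p = 0.969). The exact permutation test of the CPM gave an adjusted p of 0.654. Its sign is not settled, since it was above 0 when Day 3 embryos 4 and 8 were left out (0.15, adjusted p = 0.738).

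**Figure D1:**
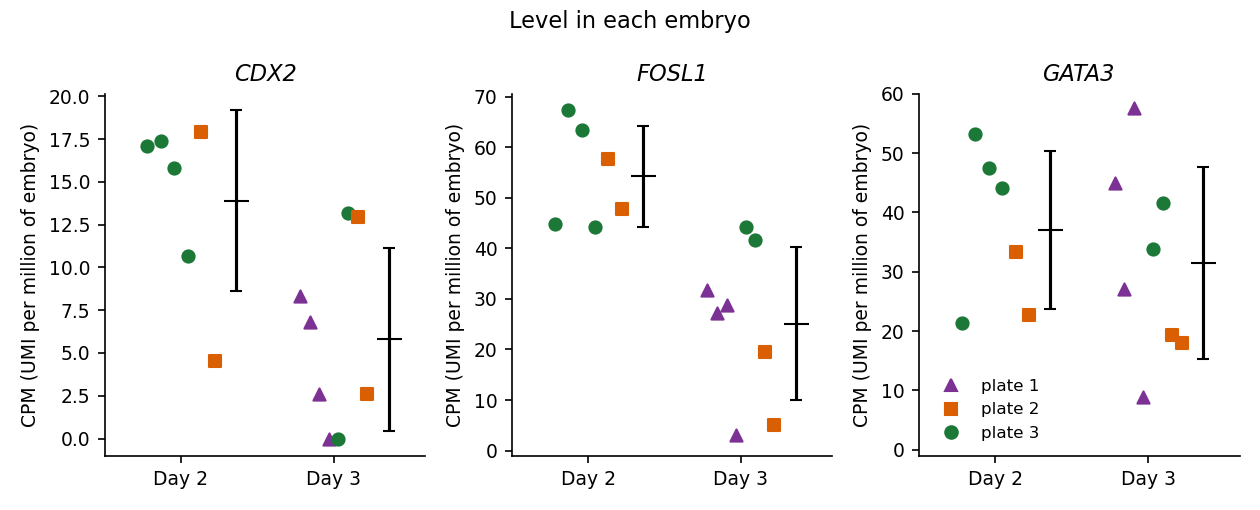
Level of CDX2, FOSL1 and GATA3 in CPM (vertical axis) for each of 6 Day 2 and 8 Day 3 embryos, in the order of their numbers, with the plate as marker and the mean ± SD in black. FOSL1 was at 44.1 to 67.4 CPM on Day 2 and 2.99 to 44.2 CPM on Day 3, while the ranges of CDX2 and GATA3 overlapped widely.

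Within an embryo, FOSL1 was more abundant relative to GATA3 on Day 2 than on Day 3. This measure was chosen after the values were seen and is given as a description. The log2 ratio of their UMI, with 0.5 added to each, was 0.60 ± 0.42 (SD, n = 6) on Day 2 against -0.49 ± 0.70 (SD, n = 8) on Day 3. It was above 0 in 5 of 6 Day 2 embryos and in 1 of 8 Day 3 embryos, embryo 5 at 0.37. It was exactly 0 in Day 2 embryo 4 and in Day 3 embryos 2, 6 and 7, so the groups overlapped. The lowest ratios, -1.58 and -1.22, belonged to Day 3 embryos 8 and 4, which had 2 and 1 UMI of FOSL1, and the Day 3 mean without them was -0.18.

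**Figure D2:**
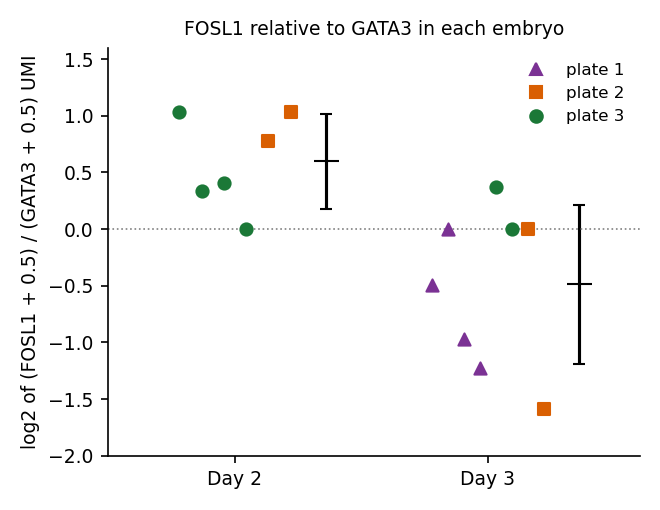
The log2 ratio of FOSL1 to GATA3 UMI, 0.5 added to each (vertical axis), in every embryo by day, with the plate as marker and the mean ± SD in black. Day 2 embryos lay between 0 and 1.03 and Day 3 embryos between -1.58 and 0.37.

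Across embryos the levels of FOSL1 and GATA3 went together on Day 3, but not beyond what the adjustment allows. Over 8 Day 3 embryos Pearson's r was 0.71 (exact permutation p = 0.0497) and Spearman's rank correlation 0.76 (exact permutation p = 0.0368). The adjusted values over the 6 relations tested, 3 gene pairs on 2 days, were 0.298 and 0.221. Leaving out the embryos farthest from the median of FOSL1, again embryos 4 and 8, r was 0.33, so the relation rested on them. Over the 6 Day 2 embryos r was 0.70 (exact permutation p = 0.138, adjusted p = 0.412), and 0.02 without the 2 embryos farthest from the median. For CDX2 with either gene r lay between 0.16 and 0.53. Plates held too few embryos of a day for a value of their own.

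Each gene was found in a larger share of Day 2 cells than of Day 3 cells, and the gap was smaller at equal depth. GATA3 was found in 33 of the 43 cells of Day 2, or 76.7% with a 95% Wilson interval from 62.3% to 86.8%. On Day 3 it was found in 52 of the 118 cells, or 44.1% with an interval from 35.4% to 53.1%. Both intervals treat cells as independent, which cells of an embryo are not. They are therefore too narrow and do not serve to compare the days. Cells with a UMI of GATA3 were the deeper ones, with a median of 109787 gene UMI against 10666 for cells without on Day 2, and 30106 against 22014 on Day 3. By embryo the share of GATA3 on Day 2 went from 33.3% in embryo 1, where 2 of 6 cells held all 10 UMI, to 100% in embryo 3. On Day 3 it went from 23.1% in embryo 4 to 75% in embryo 3 and 85.7% in embryo 1, the Day 3 embryo of greatest depth.

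Thinning left out 6 of 43 Day 2 cells and 15 of 118 Day 3 cells with fewer than 10000 gene UMI. The expected share of cells with a UMI of GATA3 was then 27.6% ± 11 (SD, n = 6) on Day 2 against 23.3% ± 11 (SD, n = 8) on Day 3, a difference of -4.25 percentage points (exact permutation test, adjusted p = 0.632). Without thinning the difference in the mean share over embryos had been -31.1 points (exact permutation test, adjusted p = 0.0875). At equal depth Day 3 embryo 3 had the highest value, 42.0%, and Day 3 embryo 4 the lowest, 8.57%.

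For FOSL1 the share at equal depth was 41.1% ± 6.77 (SD, n = 6) and 21.1% ± 12 (SD, n = 8). The Day 2 embryos ranged from 32.4% to 49.6% and the Day 3 embryos from 4.32% to 34.6%, with Day 3 embryos 5 and 6 inside the Day 2 range. The difference of -20.0 points just missed the threshold (exact permutation test, p = 0.0050, adjusted p = 0.0516), and 5.14% of genes were called lower by this test. Without thinning the adjusted p of the exact permutation test was 0.00658, but so many genes were called lower in that comparison, 35.4%, that the call says little of FOSL1. For CDX2 the shares at equal depth were 10.68% ± 4.99 (SD, n = 6) and 5.31% ± 4.81 (SD, n = 8), and the difference of -5.37 points was not called (exact permutation test, adjusted p = 0.181), whereas it was called without thinning (-39.2 points, adjusted p = 0.00658).

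**Figure D3:**
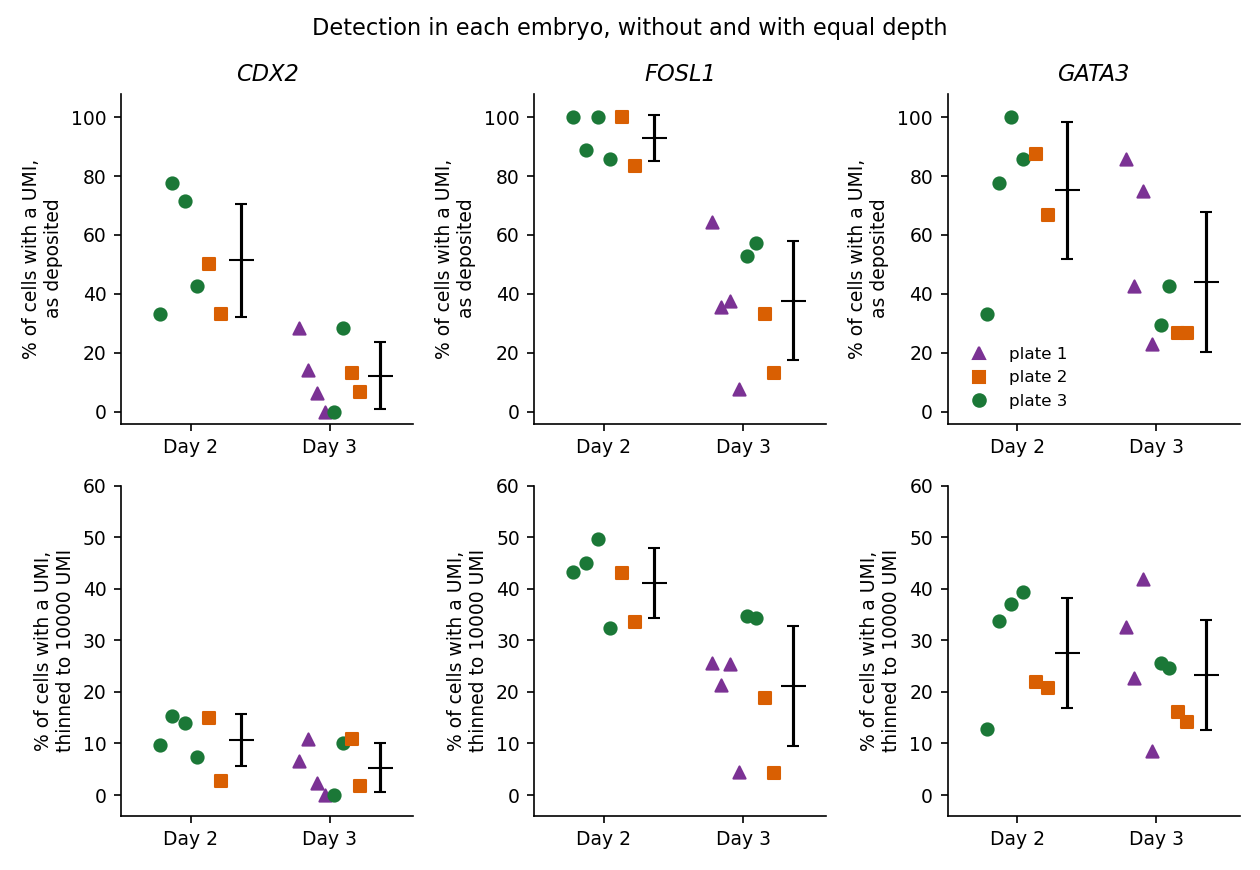
Share of an embryo's cells with a UMI of CDX2, FOSL1 or GATA3, in percent (vertical axes), as deposited in the upper row and thinned to 10000 UMI in the lower row, whose axis ends at 60%. Points are embryos with the plate as marker, and black lines give the mean ± SD. For GATA3 the mean share fell by 31.1 points in the upper row and fell by 4.25 points in the lower row.

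In the Day 3 cells where they were seen, the 3 genes were mostly counted at 1 or a few UMI. Among Day 3 cells with a UMI, 29 of 52 had a single UMI of GATA3, 21 of 45 a single UMI of FOSL1 and 9 of 14 a single UMI of CDX2. On Day 2 the median cell with a UMI held 4 of GATA3, 6 of FOSL1 and 2 of CDX2, with 19, 21 and 7 at most. All 3 of these highest counts were in 1 cell of Day 2 embryo 2, the deepest cell of the set with 357287 gene UMI. A single UMI was worth 13.31 CPM in the median Day 2 cell and 41.6 CPM in the median Day 3 cell, so a Day 3 cell without a UMI cannot be read as a cell without transcripts.

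On Day 2 the 3 genes were often found together in a cell. All 3 had a UMI in 22 of 43 cells, 10 more cells had FOSL1 and GATA3, and 7 had FOSL1 alone. GATA3 was alone in 1 cell, CDX2 and FOSL1 were together in 1 cell, and 2 cells had none. CDX2 was found in no Day 2 cell without FOSL1. On Day 3 only 5 of 118 cells had all 3 genes, 21 had FOSL1 and GATA3, 3 had CDX2 and GATA3 and 2 had CDX2 and FOSL1. GATA3 was alone in 23 cells, FOSL1 in 17 and CDX2 in 4, and 43 cells had none. The 5 Day 3 cells with all 3 genes came from embryo 1, with 3, and embryo 6, with 2.

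The number of genes found in a cell followed its depth. The median depth of Day 2 cells rose from 7642 gene UMI with none of the 3 genes to 11466 with 1, 70147 with 2 and 124300 with all 3. On Day 3 it rose from 21051 to 22801, 32046 and 47465 gene UMI. Spearman's rank correlation between the number found and the depth was 0.77 over 43 Day 2 cells and 0.40 over 118 Day 3 cells, cells that share embryos and whose counts enter both measures. By embryo the mean number per cell was 1.67 to 2.71 on Day 2 and 0.308 to 1.79 on Day 3, and only Day 3 embryo 1 reached the Day 2 range. At 10000 UMI it was 0.569 to 1.01 on Day 2 and 0.131 to 0.698 on Day 3, with Day 3 embryos 1, 3, 5 and 6 inside the Day 2 range. At the depth as deposited, in Day 3 embryos 4 and 8, 9 of 13 and 10 of 15 cells had none of the 3.

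**Figure D4:**
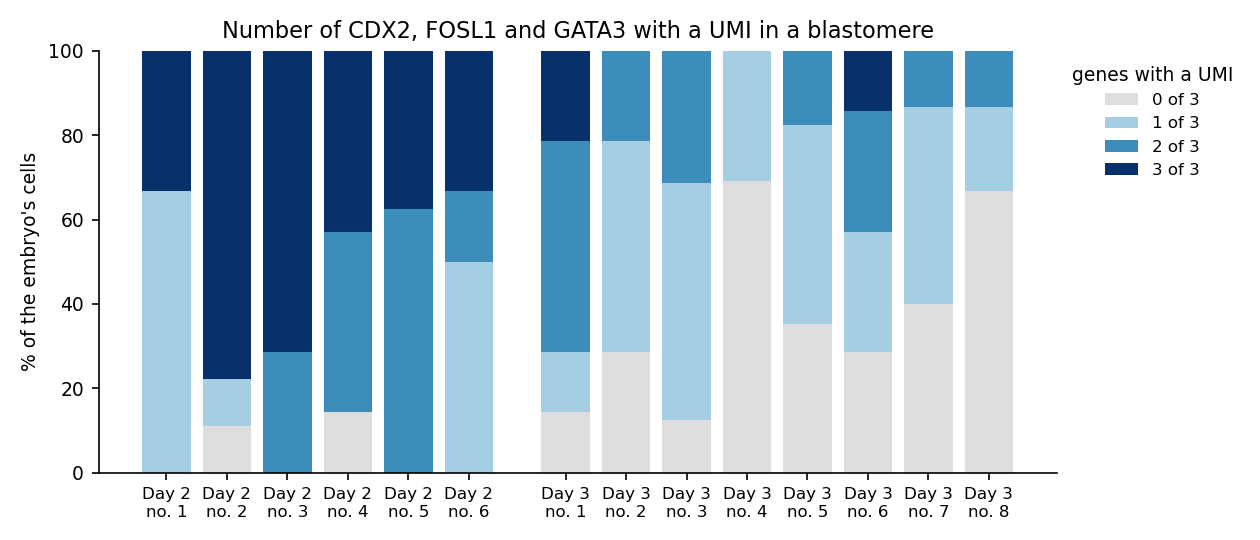
Share of each embryo's cells, in percent (vertical axis), in which 0, 1, 2 or all 3 of CDX2, FOSL1 and GATA3 had a UMI, stacked from light to dark for 6 Day 2 and 8 Day 3 embryos at the depth as deposited. Cells with all 3 were found in every Day 2 embryo and in Day 3 embryos 1 and 6.

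Co-detection was compared with the product of the single shares within each embryo, the number that would be shared if the genes were found independently in cells of like depth. At the depth as deposited, FOSL1 and GATA3 were together in 32 Day 2 cells against a product of 30.7, and in 26 Day 3 cells against 22.5. CDX2 and GATA3 were together in 22 Day 2 cells against 18.5 and in 8 Day 3 cells against 7.55. CDX2 and FOSL1 were together in 23 Day 2 cells against 21.5 and in 7 Day 3 cells against 6.75. The excess stayed under 4 cells for every pair on both days.

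Depth is shared by all genes of a cell, so the same numbers were taken at 10000 UMI. FOSL1 and GATA3 were then expected together in 4.45 of 37 Day 2 cells (12.02%) against a product of 4.49, and in 6.66 of 103 Day 3 cells (6.47%) against 5.93. For CDX2 with GATA3 the values were 1.31 against 1.26 cells on Day 2 and 1.42 against 1.32 cells on Day 3. For CDX2 with FOSL1 they were 1.90 against 1.85 and 0.992 against 1.34. All 3 genes were expected in 1.75% of the cells on Day 2 against a product of 1.49%, and in 0.444% on Day 3 against 0.324%. On Day 3, embryo 6 gave 0.411 of the 0.457 expected cells and embryo 1 gave 0.0464. Embryo 6 alone gave 2.17 cells with FOSL1 and GATA3 against a product of 1.18. For CDX2 with GATA3 it gave 0.645 against 0.351. In both pairs the gap in embryo 6 was larger than that over all Day 3 embryos together. With products this small, an excess or a deficit of joint cells would hardly show. At 20000 UMI, which leaves 35 Day 2 and 79 Day 3 cells, FOSL1 and GATA3 were expected together in 32.0% of cells on Day 2 against a product of 33.0%, and in 13.21 cells on Day 3 against 11.85. For CDX2 with GATA3 the values were 3.96 cells against 4.04 on Day 2 and 3.96 against 2.88 on Day 3, and for CDX2 with FOSL1 5.42 against 5.32 and 2.91 against 2.99. These departures were not tested.

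Some Day 3 embryos are given here as examples for the pair of FOSL1 and GATA3, at the depth as deposited. In embryo 1, 9 of 14 cells had both, against a product of 7.71, and in embryo 6, 5 of 14 against 3.43. In embryo 7 no cell had both, against 1.33, although 5 of its 15 cells had FOSL1 and 4 had GATA3. These are single embryos with few positive cells, and they were not tested.

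Sister blastomeres varied more in GATA3 than in most genes. The spread is given as the squared coefficient of variation beyond counting error among cells of an embryo, pooled over the embryos of a day, for genes with at least 50 UMI on that day. On Day 2 it was 0.118 for GATA3, 0.0725 for CDX2 and 0.0471 for FOSL1, beside a median of 0.0190 over 6045 genes (quartiles 0.00511 and 0.0454). On Day 3 it was 0.811 for GATA3 and 0.0791 for FOSL1, beside a median of 0.111 over 5722 genes (quartiles 0.0579 and 0.221), and 1.71% of these genes had a larger value than GATA3. CDX2 had 19 UMI on Day 3 and was not evaluated. The values are rough at such counts, and leaving out each Day 2 embryo in turn gave 0.0900 to 0.143 for GATA3, 0.0230 to 0.210 for CDX2 and 0.0336 to 0.0815 for FOSL1. Without the deepest cell, the cell of most UMI for all 3 genes, they were 0.196, 0.142 and 0.0665. The Day 3 value of FOSL1 was not settled against the median of all genes, with 0.143 without its cell of most UMI, 0.145 without embryo 6 and 0.0305 without embryo 3.

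The Day 3 spread of GATA3 rested to a large part on 1 cell. That cell of embryo 6 held 11 UMI of GATA3 at a depth of 35750 gene UMI, with 3 UMI of FOSL1 and 2 of CDX2, while 8 of the 14 cells of this embryo had no GATA3. Without it the squared coefficient of variation was 0.245, and without embryo 6 it was 0.190. Both were above the median of all genes, 0.111, which was taken with all cells. The value without embryo 6 lay below the upper quartile of all genes, 0.221. Leaving out each of the other Day 3 embryos in turn gave 0.740 to 1.31. The next Day 3 cells held 6 UMI each, 1 in embryo 5 and 1 in embryo 1, at 44353 and 60780 gene UMI.

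For each of the 3 genes the tested genes whose levels followed it most closely over the 14 embryos were taken, by Pearson's r of log2(CPM + 1) after the mean of each day was removed. FOSL1 was followed by DONSON (r = 0.96), a replication fork factor, RILPL1 (r = 0.96) and MYO1D (r = 0.96), an unconventional myosin. As many as 659 genes had r above 0.8 with FOSL1, so these are not particular. The likeness of DONSON and RILPL1 was stronger with Day 3 embryos 4 and 8 (r on Day 3 of 0.98 and 0.97) than without them (0.75 and 0.76). On Day 2 alone r with FOSL1 was 0.49 for DONSON, 0.60 for RILPL1 and -0.18 for MYO1D. GATA3 was followed by DNTTIP2 (r = 0.92), RAD17 (r = 0.91), a checkpoint loader, and PLEKHA1 (r = 0.91), with 129 genes above 0.8, and on Day 2 alone r was 0.77 to 0.93 for these 3. CDX2 was followed by UPRT (r = 0.86), LIFR (r = 0.82), the receptor of leukemia inhibitory factor, and MAPK3 (r = 0.78). Only 2 genes had r above 0.8 with CDX2, which had 0 to 16 UMI in an embryo. These were the highest values among 5274 genes, and whether they exceed what such a search gives was not tested. For UPRT and LIFR r on Day 2 alone was 0.07 and -0.06, and the points share libraries, depth and plates.

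Some other regulators of the trophectoderm were higher on Day 3, and others, like GATA3, were not called. Of 29 regulators in a list of the lineage, which holds CDX2 and GATA3 too, 23 were listed and 8 passed the filter on low counts, GATA3 among them. Of these, 4 were called higher on Day 3 and none lower in edgeR at an adjusted p under 0.05, beside 21.2% higher and 11.28% lower over all genes. The median log2 fold change of the 8 was 1.49, beside -0.04 over all genes. It falls in a gap, since the genes called were at 3.00 or more and the others at -0.02 or less. Whether any of them differed from CDX2, FOSL1 or GATA3 in its change was not tested. TFAP2C, an AP-2 factor, was at 25.2 CPM ± 5.31 (SD, n = 6) on Day 2 against 628 CPM ± 348 (SD, n = 8) on Day 3, or 5.01 higher on the log2 scale of edgeR (standard error 0.60, edgeR adjusted p = 4.27e-05). KLF5, a zinc finger factor of both lineages of the blastocyst, rose by 3.91 (standard error 0.80, edgeR adjusted p = 0.00176), and ID2, a helix-loop-helix inhibitor, by 4.02 (standard error 0.83, edgeR adjusted p = 0.0019). GATA2, the closest relative of GATA3, was named after its values were seen; it was at 235 CPM ± 34.2 (SD, n = 6) and 158 CPM ± 101 (SD, n = 8), and its log2 fold change was -0.38 (edgeR adjusted p = 0.335). SOX15 and PPARG, the other genes not called, had log2 fold changes of -0.45 and -0.18. The 4 genes called higher, with the signalling ligand BMP4 as the last, kept their calls with plate as a covariate. Without Day 3 embryos 4 and 8, KLF5 and ID2 no longer passed the filter on low counts, while TFAP2C and BMP4 kept their calls. KLF5 and ID2 had thus passed the filter through their Day 3 counts, which favours a rise and leaves little room for a fall. The 4 genes called higher and the median of the 8 include both of them, so part of the contrast with all genes may come from the filter.

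The level of TFAP2C differed widely among Day 3 embryos, and it is set here beside FOSL1 and GATA3. It was 43.3 CPM in embryo 1, near the 18.5 to 31.9 CPM of Day 2 embryos, 263 CPM in embryo 5, 487 CPM in embryo 3 and 587 CPM in embryo 2, and 768 to 994 CPM in embryos 4, 6, 7 and 8. Embryo 6, with 927 CPM of TFAP2C, had 41.6 CPM of both FOSL1 and GATA3. Embryo 8, with 994 CPM of TFAP2C, had 5.15 CPM of FOSL1 and 18.0 CPM of GATA3.

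Products of differentiated trophoblast could mostly not be tested. Of 19 genes in this list 13 had no row, 5 had a row but did not pass the filter on low counts, and 1 was tested, the glucose transporter SLC2A3. It rose from 61.3 CPM ± 12 (SD, n = 6) to 1544 CPM ± 774 (SD, n = 8), and its log2 fold change was 5.02 (standard error 0.53, edgeR adjusted p = 1.39e-05).

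Genes of the Hippo pathway and the TEAD complex, which stand upstream of CDX2 and GATA3 in the mouse model, were mostly not called. Of 30 genes 19 were listed and 11 tested, and 1 was higher, 1 lower and 9 not called, beside 21.2% higher and 11.28% lower over all genes, with a median log2 fold change of -0.16. SAV1, the scaffold of the Hippo kinases, was higher by 1.44 (standard error 0.50, edgeR adjusted p = 0.0373). TAOK3, an upstream kinase, fell by 1.02 (log2 fold change -1.02, standard error 0.25, edgeR adjusted p = 0.00575). The call of SAV1 was lost with plate as a covariate, and SAV1 did not pass the filter without Day 3 embryos 4 and 8, while that of TAOK3 was kept in both. With plate as a covariate the list had none higher and 3 lower, TAOK3, TAOK1 and PTPN14.

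Among AP-1 genes FOSL1 was not alone in being lower on Day 3. Of 18 genes 17 were listed and 8 tested, and ATF3 was higher, FOSL1 and JUN lower and 5 not called, beside 21.2% higher and 11.28% lower over all genes. JUN, a partner of FOSL1, fell from 40.2 CPM ± 17.5 (SD, n = 6) to 12.01 CPM ± 6.69 (SD, n = 8), and its log2 fold change was -1.46 (standard error 0.34, edgeR adjusted p = 0.00376). JUND, another partner, was at 69.2 CPM ± 26.3 (SD, n = 6) and 66.0 CPM ± 34.7 (SD, n = 8), and its log2 fold change was 0.22 (edgeR adjusted p = 0.66). JUNB had 61 UMI and was not tested, with means of 9.76 CPM ± 6.94 (SD, n = 6) and 5.81 CPM ± 4.06 (SD, n = 8). ATF3, a stress-responsive factor, rose by 3.102 (standard error 0.54, edgeR adjusted p = 0.000589). JUN and ATF3 kept their calls with plate as a covariate and without Day 3 embryos 4 and 8, which FOSL1 did not.

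In the list of keratins and desmosome genes, to which KRT8 and KRT18 belong, 14 of 23 were listed and 3 tested. JUP, plakoglobin, rose from 2.144 CPM ± 1.51 (SD, n = 6) to 69.4 CPM ± 50.8 (SD, n = 8). Its log2 fold change was 5.26 (standard error 0.75, edgeR adjusted p = 0.000139). It passed the filter through its Day 3 counts, which favours a rise, and did not pass it without Day 3 embryos 4 and 8. KRT19 was at 34.4 CPM ± 19.8 (SD, n = 6) and 26.4 CPM ± 13 (SD, n = 8), and its log2 fold change was -0.16 (edgeR adjusted p = 0.766). KRT7 was at 1.80 CPM ± 1.13 (SD, n = 6) and 1.34 CPM ± 2.02 (SD, n = 8) and was not tested.

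Among genes of polarity, junctions and cavitation some were called higher and some lower. Of 41 genes 32 were listed and 22 tested, and 4 were higher, 6 lower and 12 not called, with a median log2 fold change of -0.36. The share called higher was no larger than the 21.2% over all genes. The share called lower was above the 11.28% over all genes, a difference that was not tested. F11R, a tight junction adhesion molecule, rose by 4.23 (standard error 0.72, edgeR adjusted p = 0.00047), ATP1B3, a subunit of the sodium pump, by 2.43 (standard error 0.54, edgeR adjusted p = 0.0032), and ROCK2, a kinase of the actin cytoskeleton, by 1.24 (standard error 0.36, edgeR adjusted p = 0.0154). The apical polarity genes PATJ and PRKCI had log2 fold changes of -1.32 (edgeR adjusted p = 0.00455) and -1.16 (edgeR adjusted p = 0.0271). Without Day 3 embryos 4 and 8 the counts were 3 higher and 3 lower of 21 tested, and of the genes named here ATP1B3, ROCK2 and PATJ kept their calls. With plate as a covariate ROCK2 lost its call, and F11R, ATP1B3, PATJ and PRKCI kept theirs.

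Genes of the other lineage, the inner cell mass, were compared for reference. Of 27 genes 16 were listed and 9 tested, with 4 higher and none lower, beside 21.2% and 11.28% over all genes, and a median log2 fold change of 0.48. PDGFRA, a receptor of the primitive endoderm, rose by 4.63 (standard error 0.61, edgeR adjusted p = 9.08e-05), KLF4, a pluripotency factor, by 4.33 (standard error 0.50, edgeR adjusted p = 3.18e-05), and DPPA2, a factor of pluripotent cells, by 4.24 (standard error 0.91, edgeR adjusted p = 0.0025). Without Day 3 embryos 4 and 8 only KLF4 of these still passed the filter, and it kept its call. PDGFRA and DPPA2, at means of 4.57 and 1.44 CPM on Day 2, had passed through Day 3 counts, so the filter favours their rise.

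**Figure D5:**
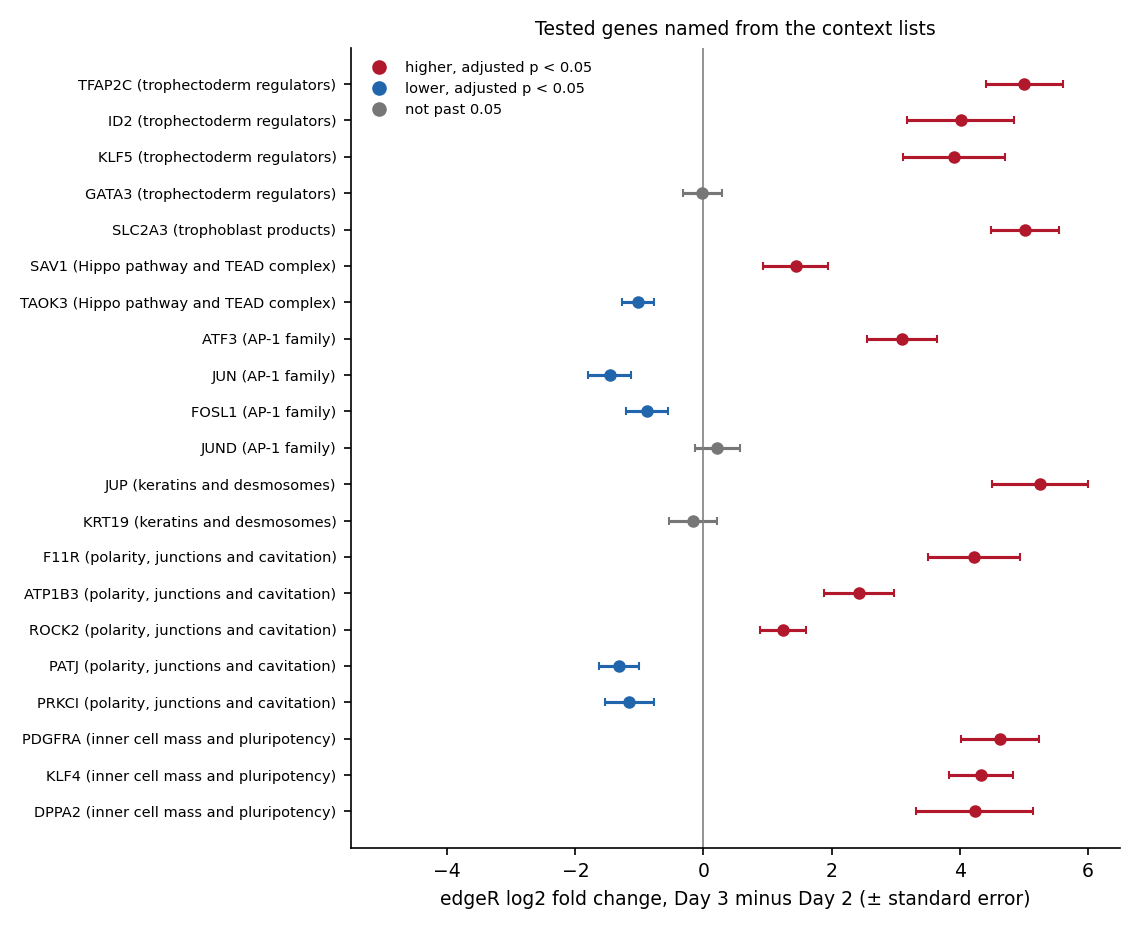
Log2 fold change of Day 3 against Day 2 in edgeR (horizontal axis, bars give ± 1 standard error) for tested genes named from each list, red where higher and blue where lower at an adjusted p under 0.05, grey otherwise. GATA3 lay at -0.02 and FOSL1 at -0.88, while TFAP2C, SLC2A3 and JUP lay above 5.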

How the data were processed

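The authors demultiplexed the reads by index and cell barcode, mapped them with STAR 2.5.2b to the bovine build Btau7 and deposited UMI counts per gene and cell for 170 cells, with 92 ERCC spike-ins that were left out of all totals. A normalised table was not used here. The 9 cells below 2000 UMI were dropped and counts were summed over the cells of an embryo, the replicate. Days were compared with edgeR 4.0.16 (filterByExpr, TMM, quasi-likelihood, standard error as the log2 fold change over the root of F), and the alternatives, which included DESeq2 1.42.0, are given at the end. Two-sided exact permutation tests ran over all 3003 splits of the 14 embryos for each of 10772 genes (SciPy 1.17.1, Python 3.11.15). Adjusted p-values are Benjamini-Hochberg values over all genes tested, with a threshold of 0.05. Those of the correlations between members were adjusted over the relations tested. Expected shares at equal depth followed from the hypergeometric distribution. The tests were tried on simulated data. Genes were named by these rules: all listed members, fixed partners, up to 3 largest rises and 3 largest falls among called genes of each list, and the 3 most alike genes of each member. A gene that these rules would name is not reported here. The members and lists were chosen with earlier results of these data known. Genes with near-identical copies can share 3′ tags, and strand use in counting is not given in the sources used here. Precision is set by the 294912 to 920192 gene UMI of an embryo.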

Additional observations from a re-analysis of the deposited data

How the results depend on the processing

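The genes called between the days numbered 1712 in the comparison as reported. They numbered 351 with the first barcode set only, which left only embryos 1 and 2 of Day 3. They numbered 1134 without Day 3 embryos 4 and 8, and 1008 in embryos 1 to 6 of each day. All of these settings had fewer embryos, and the last pair was added after the data were seen. With the first barcode set, the barcodes and the smaller number of embryos cannot be told apart. FOSL1 kept its direction under every alternative and lost its edgeR call with a log2 fold change of -0.94 without a filter on low counts, -0.73 with plate as a covariate, -0.20 on plate 3, -1.76 on plate 2, -0.72 with the first barcode set only, -0.86 with a threshold of 5000 UMI, -0.60 without Day 3 embryos 4 and 8 and -0.70 in embryos 1 to 6 of each day. It kept the call with DESeq2 (adjusted p = 0.0205), without TMM and without a UMI threshold. The permutation test of its level was no longer past the threshold on log2(CPM + 1) (-1.44), with the first barcode set only (-24.8 CPM) and without Day 3 embryos 4 and 8 (-22.1 CPM), and the difference was -12.0 CPM on plate 3. Leaving out each embryo in turn, FOSL1 ranged from -1.04 to -0.74 in edgeR and from -31.8 to -25.9 CPM in the permutation test, and 3 and 5 of 14 calls were kept. Its share at equal depth ranged from -22.0 to -17.6 points, past the threshold in 2 of 14. That share difference was past the threshold at 5000 UMI (-13.8 points) and without thinning (-55.2 points), where 35.4% of genes were called lower. At 20000 UMI it was -27.7 points and not past the threshold (exact permutation test, adjusted p = 0.0812), and on plate 3 it was -8.11 points. For CDX2 only the share without thinning was past the threshold (-39.2 points). GATA3 passed no threshold, and its log2 fold change turned sign on plate 3 (0.0067), with the first barcode set (0.12), in embryos 1 to 6 (0.10), without Day 3 embryos 4 and 8 (0.15) and on leaving out single embryos (-0.17 to 0.10, above 0 without Day 2 embryo 2 at 0.095 or 3 at 0.0052 and without Day 3 embryo 2 at 0.0081, 4 at 0.0998 or 7 at 0.024). Its level turned to 3.198 CPM as the mean of single-cell CPM and 0.37 CPM without Day 3 embryos 4 and 8, and its share to 0.098 points with the first barcode set. On plate 2 GATA3 did not pass the filter. The share of cells with all 3 genes, 1.75% on Day 2 and 0.444% on Day 3 at 10000 UMI, was 0.288% and 0.0907% at 5000 UMI and 8.31% and 2.18% at 20000 UMI. The causes were not tested.

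The embryo numbers 1 to 6 are shared by the days but do not pair the embryos. Deviations of same-numbered embryos correlated at -0.13 to 0.032, and no embryo correlated best with its own number. With the number as a replicate block, 702 genes were called, FOSL1 had a log2 fold change of -0.77 (adjusted p = 0.135) and GATA3 of 0.12.

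Depth limits CDX2 most, with 19 UMI over all Day 3 cells, and plate 1 held no Day 2 embryo.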

Other observations

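CDX1, a paralogue of CDX2, was looked at after the table had been seen. It was found in 39 of the 43 cells of Day 2 and in 70 of the 118 cells of Day 3, among them all 23 Day 2 cells and 10 of 14 Day 3 cells with CDX2. Its level was 100.2 CPM ± 18.9 (SD, n = 6) on Day 2 and 60.3 CPM ± 36.6 (SD, n = 8) on Day 3, and the log2 fold change of -0.52 was not called (standard error 0.30, edgeR adjusted p = 0.197). Day 3 embryo 5, in which no UMI of CDX2 was counted, had the highest CDX1 level of all 14 embryos, 122 CPM. Day 3 embryos 2, 4 and 8 had 17.9 to 25.7 CPM and the other Day 3 embryos 68.1 CPM or more. CDX1 and CDX2 are related in sequence, and whether 3′ tags of one were counted for the other was not tested.

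No embryo was far enough from the others of its day to be singled out in the level or the share at equal depth of CDX2, FOSL1 or GATA3, in 12 groups of 6 or 8 embryos searched by Dixon's criterion.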
